A study of Mus musculus with 12 samples.

Results

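The major histocompatibility region of mouse chromosome 17 was described here from DNA methylation of the left ventricle. Its members were chosen by position, as every deposited cytosine between 33.9 and 36.4 Mb (GRCm38, which is mm10), a stretch of 2.5 Mb. The stretch itself was selected on a diet result in Nfkbil1, a gene inside it, so every contrast of the diets below is a description, and the counts of calls given with it are for scale and support nothing. The table held 1710 cytosines there, and 1330 of them (77.8%) had a value in all 12 mice, out of 306534 such cytosines on the autosomes. Cut into non-overlapping pieces of 500 bp, the stretch gave 177 pieces with at least 3 complete cytosines, out of 38449 on the autosomes. These pieces are called 500 bp regions.

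The mice were wild-type FVB/N offspring aged 3 weeks, at weaning. Their FVB/NJ mothers had eaten either a high-fat diet (HFD, Teklad TD.06415) or a regular diet (RD, PicoLab 5L0D) from 6 weeks of age, were mated after 8 weeks to RD-fed males, and stayed on their diet. There were 3 HFD females, 3 HFD males, 4 RD females and 2 RD males, 1 library each. The labels do not give the litters, so p-values measure the spread between these mice, some of which may be siblings. Libraries numbered 2 to 8 were HFD and those numbered 9 to 14 were RD, so library order and diet cannot be told apart.

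The major histocompatibility complex, called H2 in mice, holds the genes whose products show peptides to T cells. Class I molecules are found on nearly all nucleated cells and present peptides from inside the cell. Class II molecules are made mainly by professional antigen-presenting cells and present peptides taken up from outside. Between these lies class III, a dense block with complement components, cytokines of the tumour necrosis factor family, heat shock proteins and many genes of general use. Methylation of cytosines in CpG pairs is usually absent from CpG-rich gene starts and high in gene bodies and in CpG-poor DNA. In the heart the complex is carried by cardiomyocytes, endothelium, fibroblasts and resident immune cells alike, and a bulk library averages over them. Fewer cells of a type and a change of methylation within cells cannot be told apart in such data.

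Reduced representation bisulfite sequencing reads the DNA next to MspI sites (CCGG), and so covers CpG-rich DNA first. The deposited values are percentages of methylated reads per cytosine, and no read numbers come with them. How deeply each cytosine was read is therefore unknown. The 12 mice had values at 1559 to 1693 of the 1710 cytosines. The gene table placed 226 genes in the stretch, of which 140 were protein-coding and 41 pseudogenes, and 35 of the 50 genes named H2 in the table. FVB/N mice carry another H2 haplotype than the reference strain, and its effect on read mapping was not tested. The bounds cut through no cluster of sites. The nearest complete sites below and above the lower bound had mean levels of 1.53% (position 33890655) and 6.94% (position 33908342), and those below and above the upper bound 81.6% (position 36368044) and 1.42% (position 36488104).

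The starts of 6 genes carry the contrasts that follow, and their promoters are printed from 250 bases before to 50 bases after the start. The sequences are those of RefSeq on GRCm38.p6, in the direction of the gene. Capitals mark the CpG pairs with a measured cytosine.
H2-K1: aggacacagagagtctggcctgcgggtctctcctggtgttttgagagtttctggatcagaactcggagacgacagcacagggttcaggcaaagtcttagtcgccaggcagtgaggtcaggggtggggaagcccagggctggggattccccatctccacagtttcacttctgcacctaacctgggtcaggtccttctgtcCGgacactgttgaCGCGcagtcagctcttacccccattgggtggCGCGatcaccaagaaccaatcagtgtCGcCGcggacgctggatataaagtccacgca
H2-D1: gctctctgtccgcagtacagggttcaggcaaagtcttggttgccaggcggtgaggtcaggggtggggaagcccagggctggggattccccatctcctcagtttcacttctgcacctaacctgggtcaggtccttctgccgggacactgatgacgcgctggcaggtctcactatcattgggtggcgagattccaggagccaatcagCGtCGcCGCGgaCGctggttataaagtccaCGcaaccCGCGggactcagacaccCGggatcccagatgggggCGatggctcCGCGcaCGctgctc
H2-Q6: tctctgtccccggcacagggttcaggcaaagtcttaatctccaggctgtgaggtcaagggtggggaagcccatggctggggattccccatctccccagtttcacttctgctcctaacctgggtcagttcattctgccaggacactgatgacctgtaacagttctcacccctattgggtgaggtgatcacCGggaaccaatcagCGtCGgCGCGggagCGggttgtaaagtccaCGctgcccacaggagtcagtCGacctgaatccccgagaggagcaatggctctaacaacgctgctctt
H2-Aa: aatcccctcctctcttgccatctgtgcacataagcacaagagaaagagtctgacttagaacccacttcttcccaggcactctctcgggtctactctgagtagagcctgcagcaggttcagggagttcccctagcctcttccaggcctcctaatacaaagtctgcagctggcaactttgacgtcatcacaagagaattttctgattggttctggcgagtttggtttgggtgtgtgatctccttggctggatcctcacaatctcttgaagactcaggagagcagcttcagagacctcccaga
Vwa7: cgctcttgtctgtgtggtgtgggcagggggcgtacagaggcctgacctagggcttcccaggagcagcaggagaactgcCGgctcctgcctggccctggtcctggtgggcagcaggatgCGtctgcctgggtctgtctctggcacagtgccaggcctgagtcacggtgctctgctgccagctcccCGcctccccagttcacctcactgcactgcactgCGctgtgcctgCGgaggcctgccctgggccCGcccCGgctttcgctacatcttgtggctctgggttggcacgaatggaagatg
Pfdn6: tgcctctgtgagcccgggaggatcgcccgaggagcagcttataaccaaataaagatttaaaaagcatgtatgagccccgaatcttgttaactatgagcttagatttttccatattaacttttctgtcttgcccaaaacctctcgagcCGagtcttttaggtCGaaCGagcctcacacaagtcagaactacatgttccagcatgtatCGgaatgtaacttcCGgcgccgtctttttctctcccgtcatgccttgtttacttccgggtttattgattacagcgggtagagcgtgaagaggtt
The first 3 are class I promoters with measured CpGs. The promoter of H2-K1 lies at chr17:34000298-34000597 on the minus strand, that of H2-D1 at chr17:35262844-35263143 on the plus strand and that of H2-Q6 at chr17:35424600-35424899 on the plus strand. H2-Aa (chr17:34287774-34288073, minus strand) stands for class II, and has 3 CpG pairs and no measured one. Vwa7 (chr17:35016329-35016628, plus strand) had partly methylated CpGs and 1 of the 5 most variable regions, and Pfdn6 (chr17:33940294-33940593, minus strand) had the smallest p-value between the sexes.

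The printed class I promoters share a sequence that class I genes are known for, a kappa B element, which NF-kappa B proteins bind. Its letters GGGATTCCC begin 110 bases before the annotated start in H2-K1, 170 bases before it in H2-D1 and 172 bases before it in H2-Q6. On both strands, 4 of the 11 promoters of listed class I genes in the RefSeq table had these letters (the fourth was H2-Q7, 132 bases before its start), and so did Gtf2h4, against 0.369% of 25748 autosomal promoters of the same length. The Y box, ATTGG, which the NF-Y complex binds in class I and class II promoters, was found in 9 of the 11 listed class I and 7 of 8 class II promoters, and in 37.9% of all. The core of the X2 box, TGACG, was in 5 of these 11 class I promoters and in H2-Aa, and in 21.1% of all. An interferon response core, GAAANNGAA, was in 2 of the 11 (H2-T22 and H2-T23), and in 8.52% of all. The gene lists leave out H2-M10.1, H2-M10.2 and H2-M10.3, class I-like genes at the distal end of the stretch. Of their 3 promoters, 3 had the Y box, 2 the X2 core, 0 the letters GAAANNGAA and 0 the kappa B letters. A match of letters is a description and not a measured binding site.

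Classical class I starts were almost free of methylation. H2-K1 and H2-D1, the classical class I genes of the region, encode the molecules that present peptides to cytotoxic T cells. Within 1000 bp on each side of its start, H2-D1 had 48 complete cytosines with a mean level of 1.76% ± 0.957 (SD, n = 12), and the mice ranged from 0.920 to 4.31%. H2-K1 had 8 cytosines with a mean of 5.18% ± 2.86 (SD, n = 12) and mice from 2.04 to 10.8%. The 13 measured CpG cytosines inside the printed H2-D1 promoter averaged 0.597% ± 0.271, and the 7 in H2-K1 averaged 3.80% ± 3.10 (SD, n = 12 each). Mice of both diets and both sexes overlapped. H2-K1 had from 2.83 to 10.8% in HFD and from 2.04 to 8.28% in RD, and from 2.11 to 7.58% in females and from 2.04 to 10.8% in males. H2-D1 had from 1.04 to 2.24% in HFD and from 0.920 to 4.31% in RD, and from 0.920 to 4.31% in females and from 1.33 to 2.77% in males.

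Non-classical class I genes, which encode molecules of narrower expression and more varied ligands, were also low in most of the listed windows measured. Of the 15 listed genes of this kind in the region, 6 had a window with at least 3 sites, and their means ran from 1.25 to 5.39% with a median of 2.20%. The lowest was H2-Q4 (24 sites, 1.25% ± 0.635) and the highest H2-Q6 (8 sites, 5.39% ± 1.88), with H2-Q10, which encodes a secreted class I molecule of the liver, at 2.18% ± 2.16 over 17 sites (SD, n = 12 each). H2-Q1 (1.69% ± 1.28) and H2-K2 (2.31% ± 0.989) were measured at one annotated end, since the RefSeq promoter table gave no strand for them. The other end of H2-Q1 had 2 complete cytosines at 52.1% ± 4.99, so the ends of this gene differed. H2-Q7 had 2 complete cytosines, at 10.8%, and the T-region genes H2-T3, H2-T10, H2-T22, H2-T23 and H2-T24 had too few. The H2 genes outside the lists were higher where measured. The pseudogene H2-Q3 had 58.7% ± 6.71 at 3 sites that both of its ends share, and H2-M10.3 had 81.6% ± 3.30 at 1 site, while H2-M10.1 and H2-M10.2 had 0 sites near their starts (SD, n = 12 each). The promoters of H2-Q6 and H2-Q7 share a run of at least 50 identical bases, and 18 of the 141 promoters of the region share such a run with the promoter of a gene over 1000 bp away. How reads were assigned between such copies was not tested.

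Class II starts were not measured. The region holds 12 of the listed class II genes, and 0 of the 8 with an annotated start had 3 complete cytosines within 1000 bp of it. Their promoters had few CpG pairs, with a median of 3 in 300 bases against 9 in the listed class I promoters, and 7 of the 8 had between 0 and 3. H2-DMa, which encodes a chain of the peptide-loading chaperone of class II, was the exception with 29. The start used for H2-DMa, at 34122832, lies beside the divergent start of Brd2, at 34122607. Its CpG pairs may therefore not be particular to H2-DMa, which too had no measured cytosine near this start. Only 2 of the 8 class II promoters held a CCGG, against 8 of the 11 listed class I promoters. Inside class II genes some 500 bp regions were measured far from the starts. The level was 67.7% in H2-Ab1 (4 sites), 91.0% in H2-Eb1 (3 sites) and 78.5% in H2-DMa (6 sites), but 8.0% in H2-DMb2 (3 sites), which lies 1947 bp from the nearest annotated start. The pseudogene H2-Pa had 40.9% ± 6.46 (SD, n = 12) over 3 sites that also lie in BC051537.

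**Figure D1:**
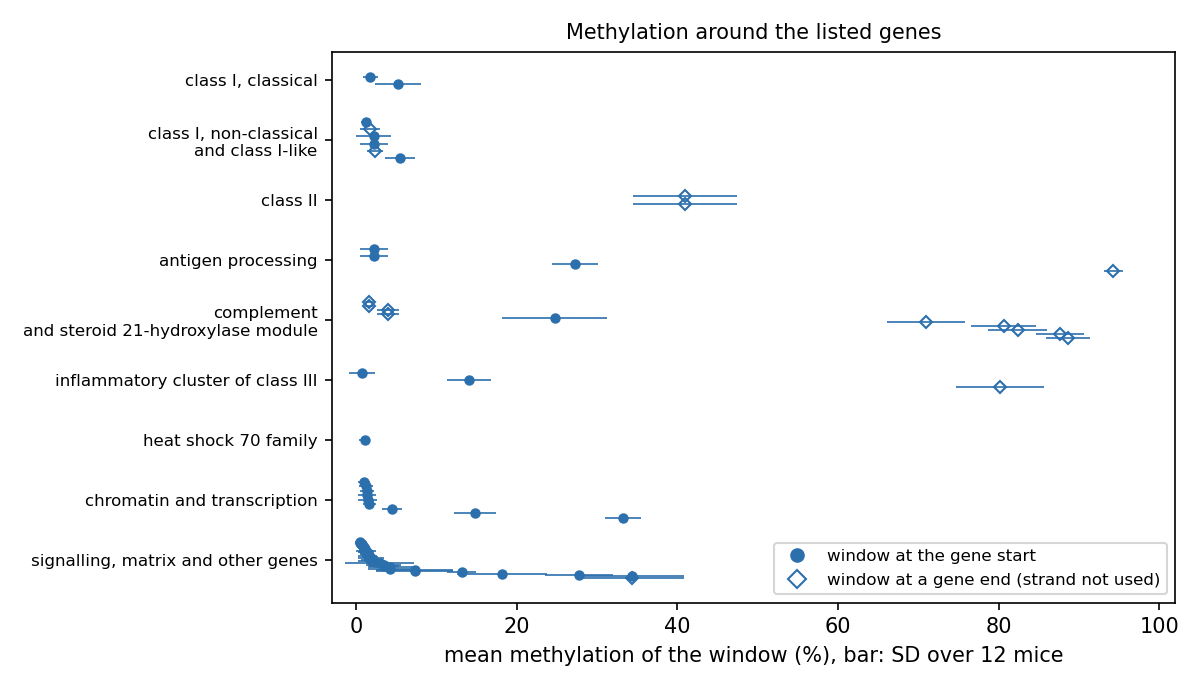
Mean methylation (percent) of the window of 1000 bp on each side of each listed gene's start (filled circles) or of an annotated end where no strand was used (open diamonds), by gene list, with the SD over 12 mice. The listed class I windows with at least 3 sites sit between 1.25 and 5.39%, and the complement module spreads from 1.59 to 88.6%.

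Antigen processing genes ranged from low to high levels. Tap1 encodes a subunit of the pump that carries peptides into the endoplasmic reticulum, and Psmb9 a catalytic subunit of the immunoproteasome. They start close together in opposite directions and share 31 cytosines, which averaged 2.23% ± 1.77 (SD, n = 12). Tapbp, which encodes tapasin, the protein that bridges the pump and class I, averaged 27.2% ± 2.86 over 21 cytosines, and single sites ran from 0 to 82.8%. A 500 bp region 375 bp from its start had 9 sites at 0.278%. Tap2, the other subunit of the pump, had 94.3% ± 1.13 at 5 sites by one annotated end and 2.68% ± 1.45 at 2 sites by the other. Which end is its start was not given in the table used, and Psmb8 had too few sites.

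The complement and steroid 21-hydroxylase module of class III held low and high windows. Its 7 measured genes of 11 gave 10 windows, of which 9 were at gene ends without a strand and several share sites with a neighbour. Of these, 4 were under 10%, 5 lay between 71.0 and 88.6%, and only Tnxb, at 24.7%, lay between. The median of the 10 windows was 47.9%, near no single window. It was 75.8% over the 8 windows that hold different sets of sites, and 78.0% over the 4 windows measured with 500 bp on each side. C4b and C4a, which encode complement component 4 and the sex-limited protein, had 71.0% ± 4.87 (3 sites) and 88.6% ± 2.73 (5 sites) at one end (SD, n = 12 each). These genes are near-identical copies, and the RNA helicase gene Skiv2l and the gene Stk19 beside them have a duplicated pseudogene each, so their reads may be shared. Low levels were found where Skiv2l meets Nelfe (1.59% ± 0.532, 3 sites) and where Stk19 meets Dxo (3.93% ± 1.41, 10 sites). C2, Cfb and Cyp21a1 had too few sites.

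Few genes of the inflammatory cluster could be read at their starts. Of 22 genes in the region 3 had a window, and the starts of Tnf, Lta, Ltb, Aif1 and Nfkbil1 had none with 3 complete sites. Ltb, which encodes lymphotoxin beta, was measured inside the gene, over 1000 bp from the start, where 30 and 13 cytosines averaged 2.44 and 2.11%. Ddx39b, an RNA helicase gene, had 0.683% ± 1.60 over 4 sites, Mpig6b, a platelet receptor gene, 14.04% ± 2.73 over 9 sites, and Ly6g6e 80.2% ± 5.51 over 4 sites at one end (SD, n = 12 each). In the heat shock 70 family, Hspa1b had 1.04% ± 0.721 over 8 sites. Its promoter shares a run of at least 50 bases with that of Hspa1a, which had too few sites, and 15 sites inside Hspa1l averaged 72.8%.

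Genes for chromatin and transcription were mostly unmethylated at their starts. The median of 9 measured genes of 16 was 1.44%, with Rxrb, a retinoid X receptor gene, at 1.44% ± 1.20 (17 sites), Daxx, a histone chaperone gene, at 1.34% ± 1.16 (17 sites) and Ehmt2, a histone methyltransferase gene, at 1.20% ± 0.901 (8 sites). Above 10% stood 2 genes. Ring1, a Polycomb gene, had 14.8% ± 2.60 over 5 sites, and Zbtb12 33.2% ± 2.23 over 15 sites (SD, n = 12 each). The Zbtb12 window mixed sites from 0.367 to 90.3%, and the 6 sites inside its 300-base promoter averaged 0.727%. Of 51 other genes for signalling, matrix and general use, 28 were measured, with a median of 1.86% and a range from 0.450 to 34.4%. With 1 site allowed, 34 were measured, with a median of 2.81% and a highest window of 90.6%, at the 2 sites of Gpank1. The highest starts with at least 3 sites were Vwa7 (34.4% ± 6.48, 7 sites), the collagen gene Col11a2 (27.7% ± 4.23, 8 sites) and the endothelial receptor gene Notch4 (18.2% ± 5.60, 3 sites).

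Over all 141 genes with an annotated start in the stretch, 57 (40.4%) had a measured window, and 45 of these 57 (78.9%) were under 10%. On all autosomes 33.6% of 25748 starts were measured, and 85.7% of those were under 10%. In the stretch 6 measured starts (10.5%) lay between 20 and 80% and 0 above 80%, against 7.08 and 3.33% on the autosomes. Measured starts had a median of 19 CpG pairs in the 300-base promoter, and starts without a measured window 6. A CCGG was present in 49 of the 57 measured and 44 of the 84 other promoters.

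Methylation climbed steeply away from gene starts. The 303 cytosines within 250 bp of a start averaged 3.19% ± 0.675, those at 500 to 1000 bp 19.4% ± 1.13, those at 2000 to 5000 bp 61.6% ± 0.935 and those at 5000 to 20000 bp 66.6% ± 0.583 (SD over 12 mice). At the same distances all autosomal sites averaged 5.38, 11.2, 48.0 and 57.7%. At 250 to 500 bp the stretch had 7.18% ± 0.714 and the autosomes 6.53%, and beyond 20000 bp 56.0% ± 0.573 and 58.9%. The stretch was therefore lower than the autosomes within 250 bp of starts and beyond 20000 bp, and higher at the distances between, by least at 250 to 500 bp.

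**Figure D2:**
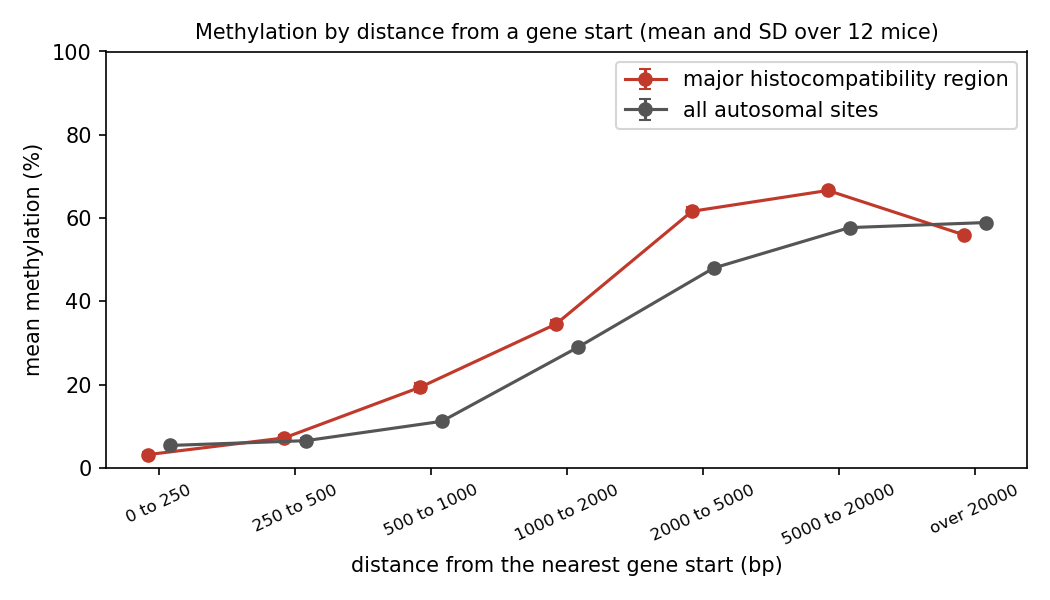
Mean methylation (percent) of complete cytosines by distance from the nearest gene start (bp), in the major histocompatibility region and over all autosomal sites. Points are means and bars SDs over 12 mice, mostly smaller than the points, and the region lies above the autosomes between 250 and 20000 bp.

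Regions of 500 bp near gene starts were mostly unmethylated, and those farther away were mostly partly or highly methylated. Of the 177 regions of 500 bp, 71 (40.1%) were under 10%, 53 (29.9%) between 20 and 80% and 43 (24.3%) over 80%. Over all 38449 autosomal ones these shares were 39.7, 23.5 and 32.9%. Among the 73 regions within 1000 bp of a gene start, 56 were under 10% and the median was 2.18%. Among the 104 others, 15 were under 10%, 42 between 20 and 80% and 41 over 80%, and the median was 72.6%.

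The subregions, bounded at landmark genes, differed in level. The block of D and Q class I genes, from the end of Ddx39b to the end of H2-Q10, had the lowest mean over its 139 sites, 14.3% ± 0.729, and mice from 13.3 to 15.9%. Class III, from the end of the class II block to Ddx39b, had the highest mean over sites, 40.3% ± 0.700 over 543 sites, with mice from 39.2 to 41.5%. By the median over 500 bp regions the framework genes between the Q and T blocks were higher (45.9% over 40 regions) than class III (43.3% over 74). The class II block averaged 30.7% ± 1.001 over 125 sites (SD, n = 12 each), and had 26.3 measured sites in 100 kb against 77.1 in class III and 119.8 in the K end. The ranges of the mice in the D and Q block and in class III did not overlap. The sites of each block share the libraries and were sampled at different distances from starts, so no test was made of this order.

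**Figure D3:**
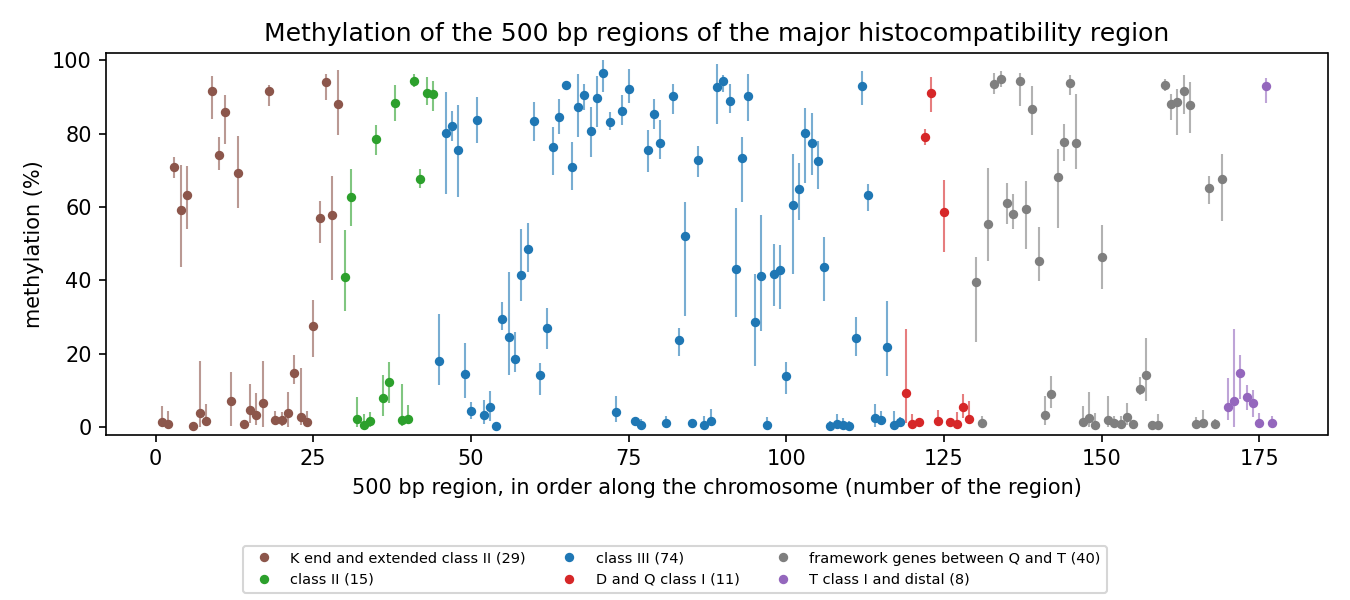
Mean methylation (percent) of the 177 regions of 500 bp, numbered in order along the chromosome and coloured by subregion. Dots are means and lines the range over 12 mice, and of the 74 class III regions 20 lie under 10% and 22 over 80%.

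As a whole the stretch had a lower mean level than the rest of the autosomes. Its mean over 1330 sites was 32.7% ± 0.457 (SD, n = 12), with mice from 32.3 to 33.7%, and that of the other autosomal sites was 38.0% ± 0.444, with mice from 37.6 to 39.0%. The ranges did not overlap. The difference of -5.30 points had the same sign in 12 of 12 mice. The share of sites within 1000 bp of a start was 47.5% in the stretch and 35.7% among the other sites. When both sets were weighted alike over the distances from a start, an alternative chosen after seeing the data, the direction turned. The stretch then had 40.3% ± 0.452 and the others 37.9% ± 0.446 (SD, n = 12 each), higher in 12 of 12 mice by 2.33 points. The exact sign-flip permutation test over mice gave p = 0.000488 (two-sided), the smallest that 4096 arrangements can give, for both of these opposite differences. The same sites were compared in every mouse, so this p supports neither direction.

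Differences among mice of 1 group were about as large as elsewhere. The pooled SD within the 4 groups of diet and sex had a median of 4.32 points over the 53 regions at 20 to 80% and of 4.78 over the 9031 such autosomal regions. Under 10% it was 1.25 points in the stretch and 1.39 on the autosomes, and over 80% 2.60 and 2.58.

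The most variable regions of 500 bp were in partly methylated DNA. The largest pooled SD, 9.29 points, was in Neu1, which encodes the lysosomal sialidase, at 34934279 to 34934323, with 5 sites. The region over the start of Vwa7, at 35016514 to 35016582, had 5 sites and a pooled SD of 8.71 points. Its HFD mice ran from 30.2 over a median of 43.1 to 59.8%, and its RD mice from 35.6 over 42.5 to 51.0%. The extremes, HFD male 4 and HFD male 3, were of the same group. The region in no gene at 35766436 to 35766494, nearest to 4833427F10Rik, had a pooled SD of 7.96 points, with mice from 54.2 (HFD female 2) to 75.8% (HFD female 4). The other 2 of the 5 most variable regions lay in the chloride channel gene Clic1, with 8.24 and 7.47 points, and are described with the diets below.

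No difference between females and males was detected in the mean of the stretch. The 7 females had 32.7% ± 0.437 and the 5 males 32.7% ± 0.535 (SD), a female minus male difference of -0.0484 points (p = 0.853, two-sided exact permutation test over 300 arrangements of the sexes within the diets). Over sites at 20 to 80% alone the difference turned to 1.15 points (52.6% ± 1.20 in females and 51.5% ± 1.16 in males, p = 0.0767, exact permutation test). No region of 500 bp passed with limma between the sexes (0 of 115 tested), against 4 of 23791 on the autosomes (0.0168%). An unadjusted p under 0.05 was found in 12 of the 115 (10.4%), against 5.56% of all. This count depended on the mice used. It was 8 (6.96%, against 5.31% of all) without HFD female 4 and 13 (11.3%, against 5.55% of all) without RD female 2. At single sites 0 of 661 passed, against 0 of 157524 (0%), and 42 (6.35%) had an unadjusted p under 0.05, against 5.3% of all.

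The smallest p-value for sex was just before the start of Pfdn6, a prefoldin subunit gene, in the printed promoter. This region, at 33940372 to 33940445, holds the 5 measured cytosines in capitals there, and also serves the divergent start of Wdr46. Females had 0.339, a median of 3.58 and at most 9.46%, and males had 6.49, 10.3, 11.2, 13.9 and 14.9%. The groups overlapped by RD male 1, which lay below RD females 1 and 3. The means were 4.32% ± 3.32 (SD, n = 7) and 11.4% ± 3.32 (SD, n = 5), a difference of -7.04 points that did not pass (limma adjusted p = 0.788).

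Tnxb, which encodes the matrix protein tenascin X, had higher female than male means in 4 neighbouring regions, and none of these differences passed the test. The first, at 34671263 to 34671450, has 12 sites and lies 728 bp downstream of the most upstream Tnxb start of the RefSeq promoter table, at 34670535. The gene itself is listed from 34660453 to 34719815 on the plus strand, so the region is 10.8 kb inside it. Females had from 22.9 over a median of 26.4 to 42.2%, and males 14.3, 19.9, 21.7, 21.8 and 23.9%. Only RD female 1 lay below the highest male, RD male 1. The difference of 7.56 points did not pass (limma adjusted p = 0.808), and was 5.17 points without HFD female 2, the mouse at 42.2%. The next 3 regions, just downstream, were looked at after this value was seen. They had female means of 19.9, 43.9 and 51.3% and male means of 16.5, 37.9 and 44.8%, differences of 3.46, 6.05 and 6.45 points, none of which passed (limma adjusted p = 0.922, 0.928 and 0.868). Neighbouring cytosines can share molecules, so the 4 regions are not independent. A copy of part of Tnxb lies in the same module, and the assignment of reads between them was not tested.

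The other 3 regions with the smallest p for sex also fell short. In Zbtb22, a zinc finger gene, at 33918481 to 33918497, 3 sites had 63.6% ± 4.81 in females and 53.1% ± 6.30 in males. Females ran from 57.2 over 64.0 to 71.3% and males had 43.5, 51.4, 54.6, 55.1 and 60.8%, so that 1 male lay within the female range (limma adjusted p = 0.808). In Wdr46, at 33948437 to 33948484, 3 sites had 72.7% ± 4.99 in females and 64.7% ± 4.43 in males. Females ran from 65.5 over 71.6 to 79.5% and males had 59.9, 60.3, 65.3, 68.8 and 69.0%, with overlap (limma adjusted p = 0.853). In Vars, a tRNA synthetase gene, at 35005808 to 35005860, 3 sites had 90.7% ± 4.47 in females and 95.9% ± 3.34 in males. Females ran from 82.7 over 92.2 to 95.5% and males had 90.9, 94.1, 97.6, 97.9 and 98.9%, again with overlap (limma adjusted p = 0.853).

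**Figure D4:**
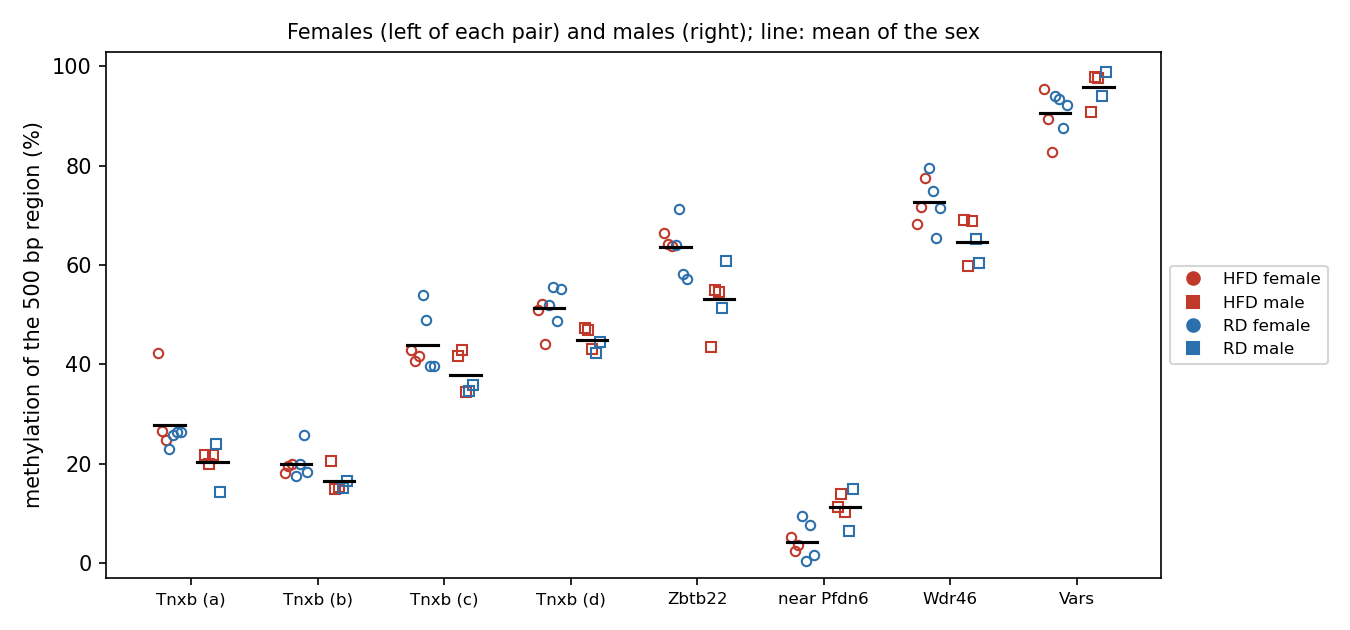
Methylation (percent) of 8 regions of 500 bp in each of 12 mice, females left and males right of each pair, coloured by diet, with the mean of each sex as a line. Tnxb (a) to (d) are the 4 neighbouring regions, where female means exceed male means by 3.46 to 7.56 points, and the sexes overlap in all 8 regions.

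For the stretch as a whole the diets overlapped. The mean was 32.6% ± 0.240 in HFD mice, from 32.3 over a median of 32.5 to 33.0%, and 32.9% ± 0.590 in RD mice, from 32.4 over 32.6 to 33.7% (SD, n = 6 each). Over sites at 20 to 80% alone they had 51.3% ± 0.823 and 52.9% ± 1.21, also with overlap. Of the 115 regions tested, 60.0% were lower in HFD and the median difference was -0.65 points. Over all 23791 the values were 53.3% and -0.18 points. This lean depended on the setting. With at least 5 sites the stretch had 48% lower and a median of 0.18 points, against 53.1% and -0.13 points of all. Without 1 mouse its share lower ran from 53.9% (without HFD male 2) to 65.2% (without RD female 3). At single sites 52.6% were lower, against 52.9% of all.

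Counts of calls give the scale for the diets and are read no further. With limma 0 of the 115 regions passed, where 0.0294% of all did, and 14 (12.2%) had an unadjusted p under 0.05, where 7.81% of all did. The latter count was 8 (6.96%) without HFD male 3 (7.35% of all) and with a replicate block (6.72% of all). It was 14 (12.2%) without RD female 4 (7.76% of all). HFD and RD mice did not overlap, with HFD lower, in 1 of 115 (0.467% of all), and with HFD higher in 0 of 115 (0.16% of all). At single sites 0 of 661 passed (0.0102% of all) and 56 (8.47%) had an unadjusted p under 0.05 (6.53% of all).

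The region without overlap was the one in Nfkbil1. The gene is named for its likeness to inhibitors of NF-kappa B, and lies next to Atp6v1g2, Lta and Tnf. The 15 cytosines at 35220728 to 35220965 lie 553 to 790 bp inside the far end of the gene (35220175 to 35236481, minus strand), 14.8 kb and 15.5 kb downstream of its 2 annotated starts. The measured DNA is thus at the 3′ end of Nfkbil1 and not at its promoter, which has 16 CpG pairs in 300 bases and no measured cytosine. The exon structure was not used here. The nearest other 500 bp regions with enough sites lay 24603 bp before and 21098 bp after it.

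HFD mice had 13.9, a median of 17.2 and at most 20.1% in the Nfkbil1 region, and RD mice had 23.6, 24.7 and at most 34.5%. Means were 17.1% ± 2.58 and 26.4% ± 4.16 (SD, n = 6 each), a difference of -9.23 points, and leaving out any 1 mouse kept it between -9.82 and -7.61 points. The 3 HFD females (13.9, 14.7 and 16.3%) lay below the 3 HFD males (18.1, 19.7 and 20.1%), while RD females (23.6, 23.8, 24.9 and 27.1%) and RD males (24.4 and 34.5%) overlapped. The difference between females and males did not pass (limma adjusted p = 0.868), and whether it differed between the diets was not tested. Each of the 15 cytosines had a lower mean in HFD, by 3.44 to 16.5 points, but at 0 of the 15 were the diets free of overlap. Site means ran from 16.2 to 28.1%, so the level was partial across the whole cluster.

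Markers of cell types could hardly be read. Of 12 cardiomyocyte, 12 leukocyte and 8 endothelial marker genes, 1 each had a window with 3 complete sites. The cardiomyocyte calcium channel gene Ryr2 was unmethylated at its start (2.29% ± 1.44, 25 sites), as was the leukocyte gene Coro1a (7.50% ± 1.46, 25 sites; SD, n = 12 each). The endothelial adhesion gene Esam had 19.5% ± 3.82 in HFD and 35.0% ± 3.61 in RD mice (SD, n = 6 each) at 5 sites by one end. All HFD mice (at most 25.2%) lay below all RD mice (at least 28.6%). Among the 23791 autosomal regions of 500 bp tested, 0.467% had no overlap with HFD lower. With 2 sites each, the cardiomyocyte gene Tnni3 had 33.7%, and the endothelial genes Tie1, Pecam1 and Kdr had 42.2, 32.9 and 5.77%. The part of a different cell mixture in the Nfkbil1 values was not tested.

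The 4 other regions with the largest differences between the diets were also lower in HFD, and all overlapped. In Cchcr1, a coiled-coil gene, 4 sites at 35530231 to 35530261 had from 45.3 over 49.8 to 53.0% in HFD and from 52.4 over 61.6 to 70.7% in RD, a difference of -12.2 points. Only RD female 4 lay within the HFD range. In the Neu1 region HFD mice had from 30.3 over 46.1 to 59.2% and RD mice from 52.8 over 57.6 to 61.3%, a difference of -10.8 points, where HFD female 2 and HFD male 2 lay among the RD mice. In Clic1, 3 sites at 35052763 to 35052812 had from 16.6 over 19.3 to 36.3% in HFD and from 26.3 over 32.0 to 41.9% in RD, a difference of -9.11 points. There HFD female 3 and HFD male 2 lay among the RD mice. A second Clic1 region, 4 sites at 35058542 to 35058604 that lie 431 bp upstream of the start of Ddah2, had from 26.2 over 37.5 to 48.4% in HFD and from 40.3 over 43.8 to 57.9% in RD, a difference of -8.62 points. Here HFD female 4 exceeded 5 of the 6 RD mice.

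**Figure D5:**
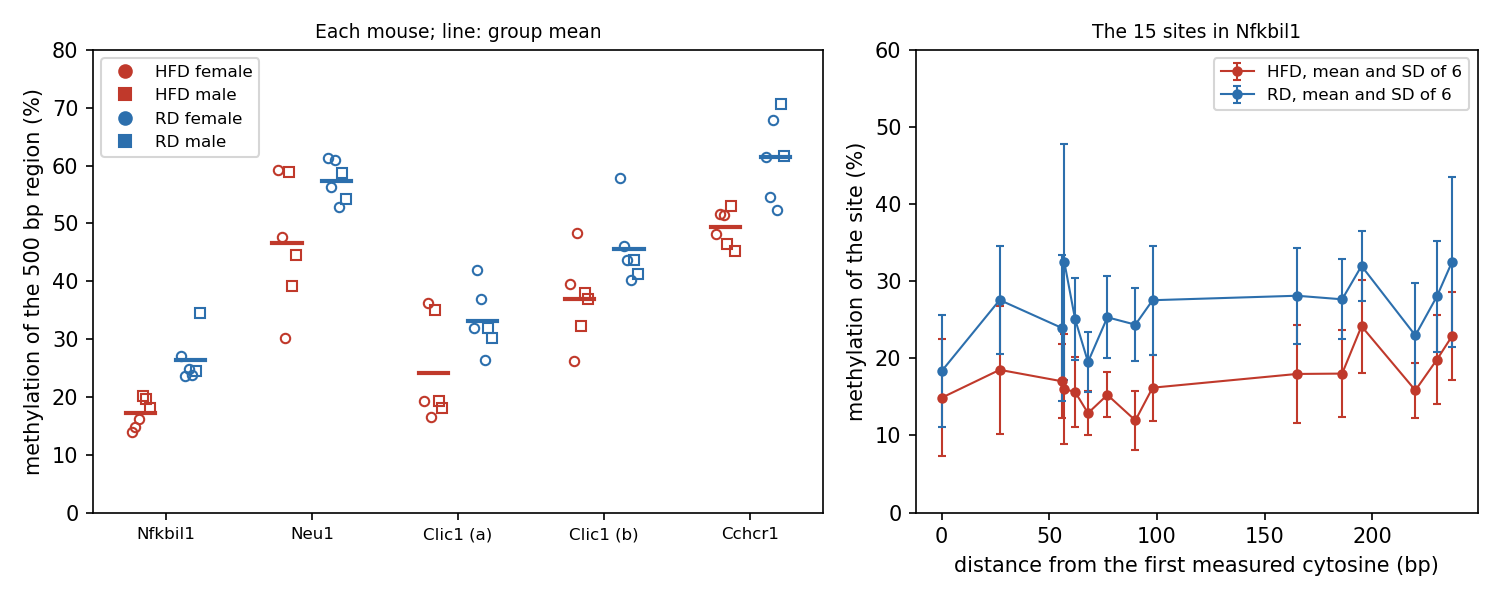
Left, methylation (percent) of the 5 regions of 500 bp with the largest diet differences in each mouse, with group means as lines. Right, mean and SD (n = 6) of the 15 Nfkbil1 cytosines by distance from the first one (bp). HFD and RD mice do not overlap in the Nfkbil1 region and overlap in the 4 others, and the HFD mean is lower at all 15 cytosines.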

How the data were processed

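Reduced representation bisulfite sequencing of left ventricle DNA from 12 offspring was analysed. Per the submitters' processing notes, FastQC, Trim Galore, Bismark 0.19 and limma were used with build mm10. The authors deposited 1 table of percent methylation per cytosine, without read counts, and 0 of its columns lacked a sample. Of 45401 deposited positions inside RefSeq promoters (GRCm38.p6), 99.98% fell on a CG. Sites with values in all 12 samples were used. Rates were averaged over 500 bp, transformed to log2((rate + 0.05)/(1 − rate + 0.05)) and fitted with limma 3.58.1 (lmFit, eBayes; diet and sex as terms) over all autosomal regions or sites with a mean of 5 to 95%, with Benjamini-Hochberg adjustment at 0.05. The fits were tested on simulated data.

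Gene windows spanned 1000 bp on each side of the most upstream annotated start, or of both ends where no strand was given, with at least 3 sites. Gene lists covered classical and non-classical class I, class II, antigen processing, complement, the inflammatory cluster, heat shock, chromatin, other genes and cell markers. Values by mouse are given for Nfkbil1 and for the 5 regions each with the largest diet difference, the largest pooled SD and the smallest p for sex. The members and lists were chosen with earlier results of these data known.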

Additional observations from a re-analysis of the deposited data

Results flagged for a closer look

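Of 26 sets of 6 values (the mean of the stretch and the named 500 bp regions, in HFD and in RD mice), 4 held a mouse far from the others of its diet, where chance gives about 1 in 20, or 1.3. The regions were named for their spread or differences, which favours such values. In the first Tnxb region HFD female 2 had 42.2%, against 19.9 to 26.6% in the other HFD mice, and RD male 2 had 14.3%, against 22.9 to 26.4% in the other RD mice. In the Clic1 region upstream of Ddah2, RD female 1 had 57.9%, against 40.3 to 46.2% in the other RD mice. In the Nfkbil1 region RD male 2 had 34.5%, against 23.6 to 27.1% in the other RD mice.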

How the results depend on the processing

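Counts of calls inside the stretch stayed at 0 for sex in regions and at sites and for diet at sites under every alternative run, the 12 fits without 1 mouse included (0 to 0). For diet in regions the count was 1 with a mean rate of 20 to 80% and 1 with at least 5 sites, both times the Nfkbil1 region, where fewer regions were tested. The stretch was selected on that region, so these calls support nothing. It was 0 to 0 in the 12 fits without 1 mouse and 0 elsewhere. With a replicate block the stretch had 0 calls in all 4 fits, and the whole table had 3 regions for diet (7 without the block) and 0 for sex (4), and 0 sites for diet (16). The labels do not say what same-numbered mice share. Deviations of such mice correlated at -0.082 to 0.0164 over 13 pairs, and 0 of 12 mice correlated best with their own number. These values cannot show whether same-numbered mice share a litter, a cage or a batch. Over all alternatives the whole table gave 3 to 19 regions and 0 to 78 sites for diet, and 0 to 5 regions and 0 to 1 sites for sex. The cause was not tested.

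The difference of the stretch from other autosomal sites was -7.67 to -4.01 points under the 4 other definitions of the 2 means, and -5.33 to -5.26 points without 1 mouse. It reversed to 2.33 points when weighted by distance to a start. The female minus male mean was -0.183 to 0.183 points without 1 mouse. It turned to 1.15 points at 20 to 80% sites and to 0.23 points over 500 bp regions (p = 0.0767 and 0.46, exact permutation test). All 10 named diet and sex differences kept their sign. These regions were named for their differences, and settings that alter only the fit leave a difference of means unchanged. The kept signs therefore support nothing. Median levels of the gene lists moved most for antigen processing (14.7%; 1.91% with 500 bp windows, 2.68% with 1 site, 2.34% with missing values), complement (47.9%; 78.0% with 500 bp windows), the inflammatory cluster (14.04%; 46.7% with 1 site) and class II (40.9%; 58.7% with missing values). That of signalling and other genes went from 1.86 to 2.81% with 1 site. A coverage minimum could not be applied, since the depth is unknown.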

Other observations

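Single cytosines that read as unmethylated inside methylated DNA were found in the stretch. Of 142 complete cytosines whose measured neighbours on both sides, within 100 bp, were over 70%, 4 were under 10% (2.82%), against 371 of 37363 on the autosomes (0.993%). They lay in Daxx (33911624, 0%, neighbours 89.5 and 80.3%), in Stk19 (34830014, 1.42%, neighbours 96.9 and 98.0%), in Bag6 (35145289, 0.387%, neighbours 71.7 and 84.4%) and in Abcf1 (35961290, 0.439%, neighbours 80.9 and 90.4%). The highest of the 12 mice had 0, 5, 1.65 and 5.26% at these positions. Whether FVB/N mice carry the reference base there was not tested. A sequence difference from the reference and absent methylation therefore cannot be told apart at these positions. Where both cytosines of a CpG pair were measured, at 13 pairs, their means differed by a median of 2.07 points.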
